A study of Mus musculus with 10 samples.

Results

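The 9 genes described here encode the myosin of the mouse ventricle and its closest partners: the heavy chains Myh6, Myh7 and Myh7b, the light chains Myl2, Myl3, Myl4 and Myl7, the myosin-binding protein Mybpc3, and Mhrt, a noncoding RNA transcribed antisense to Myh7. They were chosen by name from the 57185 genes that had values in the count table, after the difference between the genotypes in these same counts was known. Their own genotype differences are therefore given as a description, without a test. All 9 were found, and all 9 had enough counts to enter the comparison over 13451 genes.

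The RNA came from ventricular tissue of the cardiac apex, with 1 library for each of 5 MLPKO and 5 MLPKO-cRADKO male mice. Both groups lacked muscle LIM protein (MLP, encoded by Csrp3), which leads to dilated cardiomyopathy, both carried floxed Rrad, the gene of the calcium channel inhibitor RAD, and both received tamoxifen at 100 mg/kg at 10 weeks of age. The groups differed in the MYH6-MerCreMer transgene, a tamoxifen-inducible Cre recombinase driven by the Myh6 promoter and present in MLPKO-cRADKO mice only, so that the transgene and the loss of RAD in cardiomyocytes cannot be told apart here. The sample labels place the tissue 1 month after tamoxifen and at 16 weeks of age, which do not match for a dose at 10 weeks, and the study's methods give a younger age at tissue collection. Nothing in the labels pairs a mouse of one group with a mouse of the other.

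The heavy chains carry the motor of the sarcomere. The adult mouse ventricle uses mainly the fast alpha heavy chain of Myh6, and the slow beta heavy chain of Myh7 is the form of the foetal ventricle that returns in the failing heart. Myh6 and Myh7 lie one after the other on the same strand, and the GENCODE canonical transcript of Mhrt starts between them and runs through Myh7 in the opposite direction. Each heavy chain gene also hosts a microRNA in an intron, Mir208a in Myh6, Mir208b in Myh7 and, on another chromosome, Mir499 in Myh7b. The heavy chain genes are thus a known example of muscle genes that carry their own regulators.

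The mature microRNAs of the 3 heavy chain genes are shown because their sequences tie the genes together, with the seed (bases 2 to 8) in capitals. They are RefSeq sequences that were matched to GRCm39, at chr14:55186529-55186550 (minus strand), chr14:55213167-55213188 (minus strand) and chr2:155464813-155464833 (plus strand).
mmu-miR-208a-3p (Myh6): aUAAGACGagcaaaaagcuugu
mmu-miR-208b-3p (Myh7): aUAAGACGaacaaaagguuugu
mmu-miR-499-5p (Myh7b): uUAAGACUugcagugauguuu
The miRNAs of Myh6 and Myh7 shared the same seed and 19 of 22 bases. The miRNA of Myh7b had 6 of the 7 seed bases in common with that of Myh6.

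The starts of the 3 neighbouring genes are shown for a muscle promoter element that they had in common. The 250 bases before each RefSeq start were searched on both strands for the core of the M-CAT element, CATTCC (reverse complement GGAATG), to which TEAD factors bind, and for AGATAA (reverse complement TTATCT), a form of the GATA element. The windows below hold the M-CAT core, in capitals, with 12 bases on either side, read along the strand of the gene at chr14:55204253-55204282 (Myh6), chr14:55232267-55232296 (Myh7) and chr14:55206012-55206041 (Mhrt).
Myh6: ctttggggaggaGGAATGtgcccaaggact
Myh7: ctagtgagccgtGGAATGttagagatattt
Mhrt: ctcagggaacctGGAATGccactcaggcca
The core began 206 bases before the start of Myh6, 201 bases before the upstream of the 2 starts of Myh7, and 220 bases before the start of Mhrt. The window before the other Myh7 start lacked it. It was present in 12.6% of 32851 promoters of the same length. AGATAA was in none of these windows and in 9.99% of all promoters. These are matches of letters and not measured binding sites. Relative to the RefSeq starts used, the GENCODE canonical starts lay at −161 bases for Myh6, −62 for Mhrt and 0 for the upstream start of Myh7. The distances of the core therefore depend on the start used, and they are shorter from the canonical starts of Myh6 and Mhrt.

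**Figure D1:**
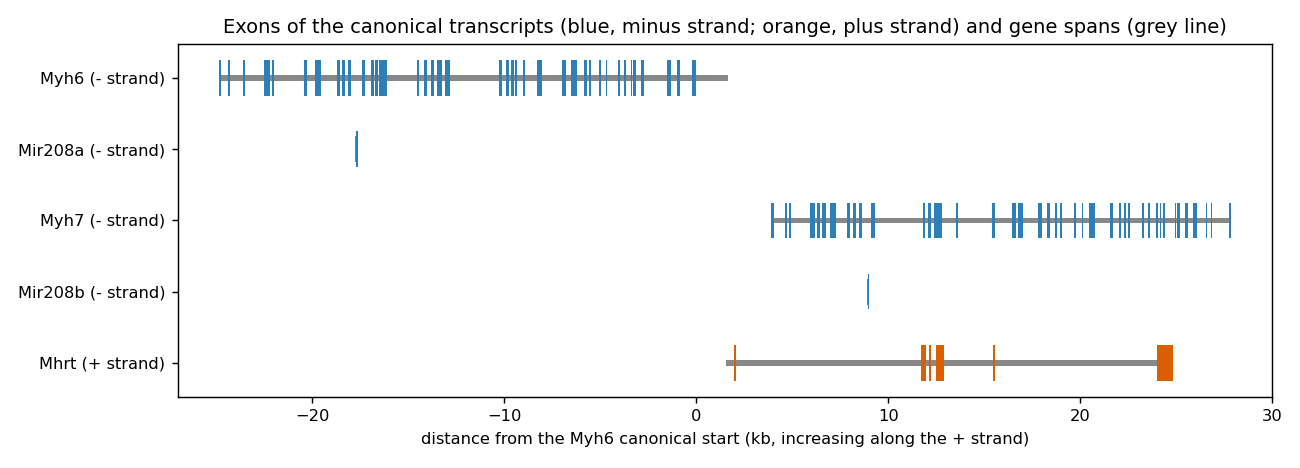
Map of the Myh6, Myh7 and Mhrt genes, in kb from the start of the Myh6 canonical transcript along the plus strand, with exons of the canonical transcripts as boxes and the annotated span of each gene as a line. The canonical transcript of Mhrt, on the plus strand, starts between Myh6 and Myh7, while the annotated Mhrt span begins just inside that of Myh6. Mhrt covers most of Myh7, whose exons are on the minus strand.

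Mhrt (chr14:55205795-55229058, plus strand) and Myh7 (chr14:55208141-55232084, minus strand) overlap over 20918 bases in the GENCODE annotation. Of the 7706 bases in any annotated exon of Mhrt, 2462 (31.9%) lay within exons of Myh7, and 93 within exons of Myh6 (chr14:55179367-55205887, minus strand). Mir208b (chr14:55213157-55213233, minus strand) lies in an intron of Myh7. All of its 77 bases are covered by an annotated Mhrt exon on the other strand, and 0 by exons of the canonical Mhrt transcript. The sources used here do not state whether the counting used strand. Reads from Mhrt, Myh7 and Mir208b in these shared stretches therefore cannot be told apart. The heavy chains are also close paralogs. Of the 50-base stretches of the canonical Myh7 transcript, 22.6% occurred without a mismatch in that of Myh6, against 5.51% of the 150-base stretches, and 0% occurred in that of Myh7b.

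The deposited values are raw counts per gene, with a total of 33457406 to 49965101 per mouse (median 43738141). They were scaled to the mean depth with TMM factors (normalized counts), which left a median log2 difference of 0.01 over the 13451 genes. Differences are MLPKO-cRADKO minus MLPKO on the log2 scale with the standard error of the edgeR fit, and a gene outside the 9 was called where its edgeR adjusted p was under 0.05. Of all genes tested, 2.74% were called, 1.8% as lower and 0.944% as higher in MLPKO-cRADKO. The share of all genes at an unadjusted p under 0.05 is not given here, so nothing is read from numbers at that level. The knocked-out gene of both groups, Csrp3, still gave 41725 to 134792 normalized counts in MLPKO and 28554 to 48660 in MLPKO-cRADKO. Rrad gave 5774 to 11644 in MLPKO and 5562 to 8362 in MLPKO-cRADKO, with overlap between the genotypes, so that gene-level counts did not separate the libraries by the deleted gene. The part of each gene that was removed is not given in the sources used here, and counts outside it check nothing.

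Among the 9 genes, Myh7 was lower and Mhrt was higher in every MLPKO-cRADKO mouse than in any MLPKO mouse, while the major heavy chain Myh6 was lower by a smaller proportion. The ventricular light chains and Mybpc3 differed by −0.14 to −0.27 on the log2 scale, and Myh7b was level between the genotypes. The atrial light chains Myl4 and Myl7 were scarce in all mice, with 1 MLPKO-cRADKO mouse above the rest. The fit called 2 of the 9, Myh7 (lower) and Mhrt (higher), against 2.74% of all genes. For 3 of them (Myh7, Mhrt and Myl3) the ranges of the genotypes were separate, against 6.62% of all genes. Since this contrast chose the genes, nothing is read from these counts. The median log2 difference was −0.14 over the 9 genes and 0.01 over all genes tested. As the samples were pieces of whole tissue, fewer cells of a type and less RNA per cell cannot be told apart.

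**Figure D2:**
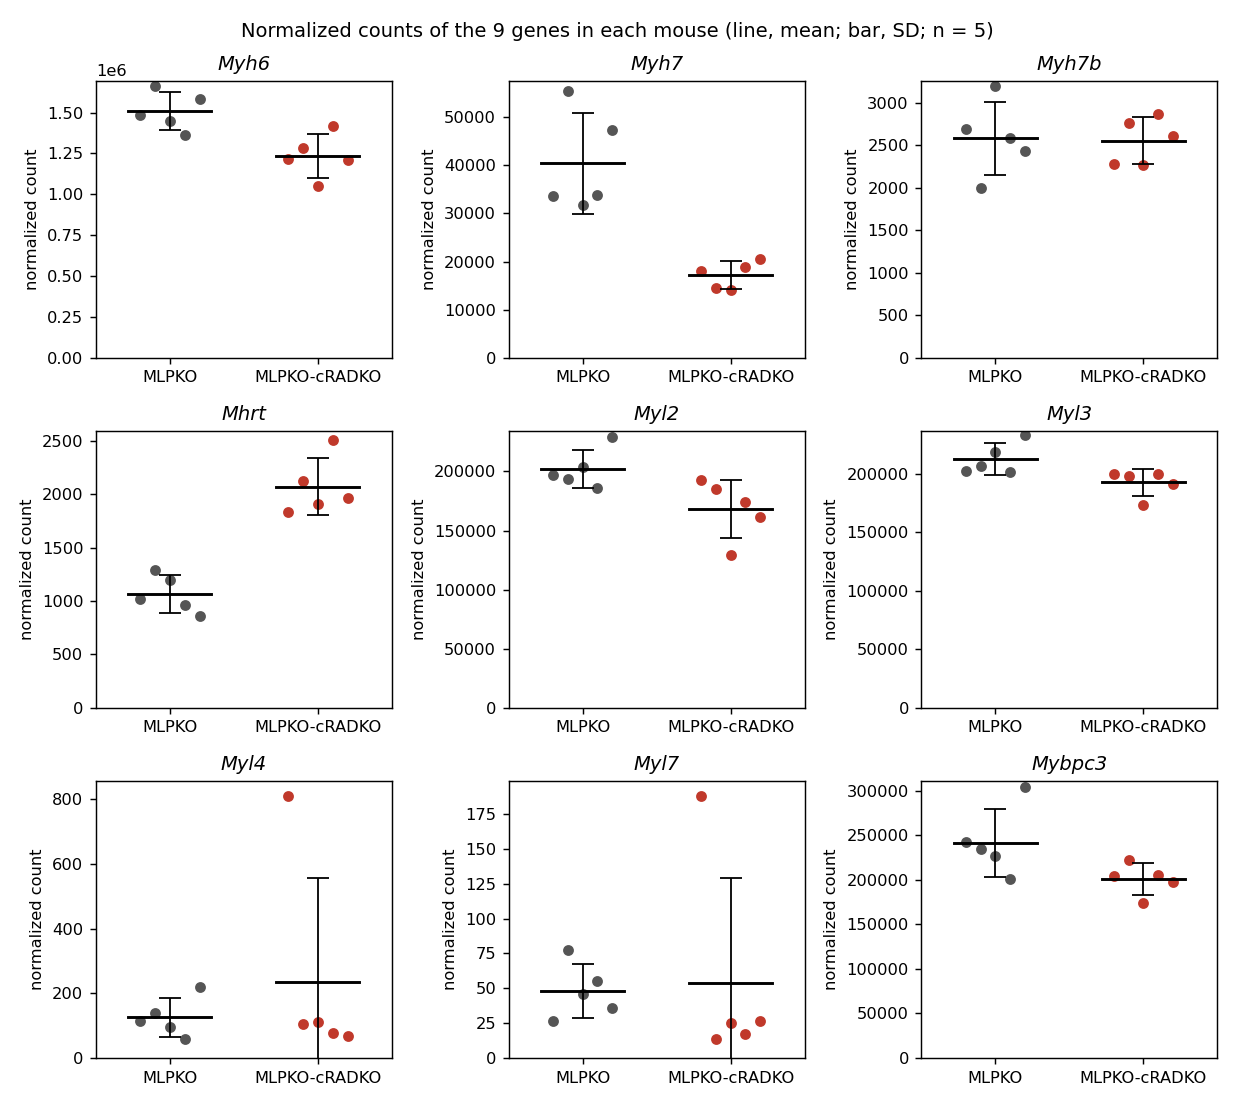
Normalized counts of the 9 genes, with 1 point per mouse, the mean as a line and the SD as a bar (n = 5 per genotype); each vertical axis starts at 0, and the lower SD bars of Myl4 and Myl7 run below it. Myh7 and Mhrt separate the genotypes in opposite directions, and 1 MLPKO-cRADKO mouse stands at 810.2 for Myl4 and 188 for Myl7.

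Myh7, the beta heavy chain, had normalized counts of 33536, 55490, 31840, 33827 and 47442 in MLPKO mice 1 to 5. In MLPKO-cRADKO mice 1 to 5 it had 18067, 14421, 14049, 18792 and 20628. The lowest MLPKO mouse was above the highest MLPKO-cRADKO mouse, and within MLPKO the values of mice 2 and 5 stood above those of the other 3. The means were 40427 ± 10499 and 17191 ± 2859 (SD, n = 5 each), so that MLPKO-cRADKO had 42.5% of the MLPKO mean, a log2 difference of −1.23 (SE 0.17). Relative to its mean the spread was wider in MLPKO, with a coefficient of variation of 26% against 16.6%.

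Mhrt, the antisense RNA, had normalized counts of 1021, 1289, 1195, 964.7 and 856.3 in MLPKO mice 1 to 5. In MLPKO-cRADKO mice 1 to 5 it had 1836, 2127, 1908, 2508 and 1968. Every MLPKO-cRADKO mouse was thus above every MLPKO mouse, with mouse 4 the highest. The annotated span of Mhrt begins 1.57 kb from the Myh6 canonical start and its canonical transcript 1.957 kb, both on the side of the Myh6 promoter. The length of the Myh6 promoter in the transgene, present in MLPKO-cRADKO mice only, is not given in the sources used here. Whether any Mhrt counts come from the transgene was not tested. The means were 1065 ± 175 (SD, n = 5) and 2069 ± 267.5 (SD, n = 5), 194% of the MLPKO mean, a log2 difference of 0.96 (SE 0.12).

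The opposite differences of the antisense pair were of unlike size in absolute counts. The Myh7 mean was lower by 23236 normalized counts (cRADKO minus MLPKO −23236), and the Mhrt mean was higher by 1004. In raw counts within each library, which need no normalization, Mhrt had 3.05, 2.32, 3.75, 2.85 and 1.8 counts per 100 Myh7 counts in MLPKO mice 1 to 5. The same ratio was 10.2, 14.7, 13.6, 13.3 and 9.54 in MLPKO-cRADKO mice 1 to 5. The genotypes did not overlap, the mean ratios being 2.76 ± 0.738 (SD, n = 5) and 12.3 ± 2.29 (SD, n = 5), and the mean log2 ratio differed by 2.18 (SE 0.22), that is 4.52-fold. Across single mice, Pearson's r of the log2 CPM (counts scaled to library size) of Mhrt and Myh7 was −0.828 over the 10 mice and 0.143 (same 10 mice) once the genotype means had been subtracted. These correlations are descriptive, and both genes share libraries and overlapping exons.

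Myh6, the alpha heavy chain and the highest of the 9 genes, had normalized counts of 1484971, 1662708, 1448614, 1365415 and 1581926 in MLPKO mice 1 to 5. In MLPKO-cRADKO mice 1 to 5 it had 1213557, 1285410, 1050395, 1421012 and 1207081. Only MLPKO-cRADKO mouse 4 reached into the MLPKO range. The means were 1508727 ± 115957 (SD, n = 5) and 1235491 ± 134591 (SD, n = 5), a log2 difference of −0.29 (SE 0.09). In percent the mean of Myh7 differed by −57.5 and that of Myh6 by −18.1, although the difference of −273236 normalized counts for Myh6 exceeded that for Myh7. Added together, the 2 heavy chains had means of 1549154 ± 125641 and 1252682 ± 135774 (SD, n = 5 each), with overlap.

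The ratio of the slow to the fast heavy chain was lower in MLPKO-cRADKO. Per 100 Myh6 counts, MLPKO mice 1 to 5 had 2.26, 3.34, 2.2, 2.48 and 3 Myh7 counts. MLPKO-cRADKO mice 1 to 5 had 1.49, 1.12, 1.34, 1.32 and 1.71. All values in MLPKO-cRADKO were below the lowest in MLPKO. The mean ratios were 2.65 ± 0.495 and 1.4 ± 0.218 (SD, n = 5 each), a difference of −0.92 (SE 0.15) in mean log2 ratio, or 1.89-fold. Per kb of exon, Myh7 made up 2.58% ± 0.47 of the sum of both chains in MLPKO and 1.37% ± 0.21 in MLPKO-cRADKO (SD, n = 5 each), so Myh6 was the predominant chain in all 10 mice. Mhrt per 1000 Myh6 counts was 0.541 to 0.825 in MLPKO and 1.51 to 1.82 in MLPKO-cRADKO, a difference of 1.26 (SE 0.11) in mean log2 ratio without overlap.

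**Figure D3:**
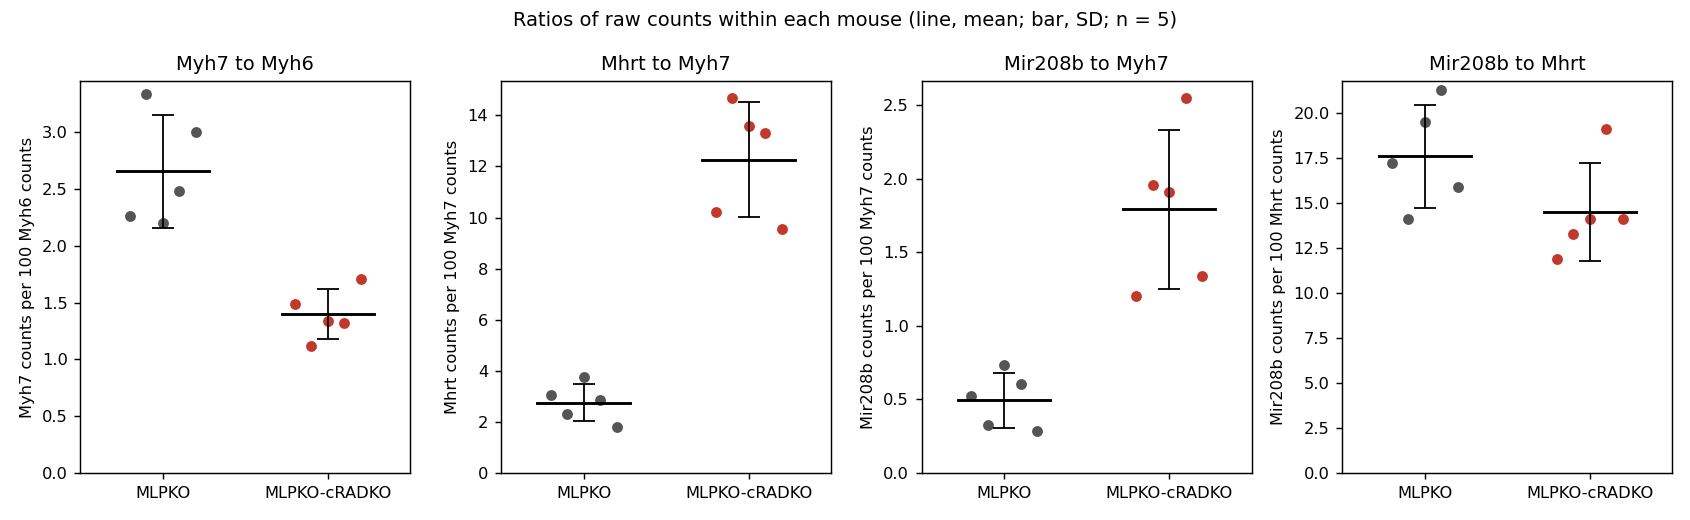
Ratios of raw counts within each library, as counts of the first gene per 100 counts of the second, with 1 point per mouse, the mean as a line and the SD as a bar (n = 5 per genotype). Myh7 to Myh6, Mhrt to Myh7 and Mir208b to Myh7 separate the genotypes, while Mir208b to Mhrt overlaps, at 14.1 to 21.3 in MLPKO and 11.9 to 19.1 in MLPKO-cRADKO.

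Counts at the Mir208b gene had a higher mean in MLPKO-cRADKO, as for Mhrt and unlike its host gene Myh7, but the difference was not called. Mir208b was singled out after its values had been seen. It had normalized counts of 175.8, 182.1, 232.6, 205.1 and 135.9 in MLPKO mice 1 to 5 and 217.7, 282.6, 268.7, 478.7 and 276.7 in MLPKO-cRADKO mice 1 to 5. The groups overlapped through MLPKO-cRADKO mouse 1, and the log2 difference of 0.71 (SE 0.21) had an edgeR adjusted p of 0.0812 (DESeq2 adjusted p = 0.018). Per 100 Mhrt counts, Mir208b had 17.6 ± 2.83 counts in MLPKO and 14.5 ± 2.73 in MLPKO-cRADKO (SD, n = 5 each). Per 100 Myh7 counts it had 0.495 ± 0.187 and 1.79 ± 0.539 (SD, n = 5 each), without overlap. Within the genotypes, Pearson's r of log2 CPM was 0.758 with Mhrt and −0.179 with Myh7 (n = 10 mice after subtraction of the genotype means). The libraries were enriched for polyadenylated RNA and do not measure the mature miRNA. All 77 bases of Mir208b lie in an annotated Mhrt exon, and 0 in exons of the canonical Mhrt transcript. The strand that the Mir208b counts come from cannot be told. Mir208a had 0 to 21 raw counts per mouse and was not tested, and Mir499 was at 0 in every mouse, which allows up to 3 counts per library.

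Myh7b (chr2:155453096-155476234, plus strand), an older relative of the cardiac heavy chains, had means of 2580 ± 433 in MLPKO and 2554 ± 275.6 in MLPKO-cRADKO (SD, n = 5 each). The ranges of 1998 to 3195 and 2264 to 2866 overlapped, and the log2 difference was −0.01 (SE 0.11). Per 1000 Myh6 counts Myh7b had 1.73 ± 0.379 and 2.07 ± 0.125 (SD, n = 5 each), also with overlap.

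The light chains wrap around the lever arm of each heavy chain, as a regulatory chain (Myl2 in the ventricle, Myl7 in the atrium) and an essential chain (Myl3 in the ventricle, Myl4 in the atrium and the foetal ventricle). Myl2 (chr5:122238848-122251545, plus strand) had normalized counts of 186301 to 229080 in MLPKO (median 197338) and 129376 to 192351 in MLPKO-cRADKO (median 173777), a log2 difference of −0.26 (SE 0.11). MLPKO-cRADKO mouse 3 was the lowest and the ranges overlapped. Myl3 (chr9:110570929-110599396, plus strand) had 202707, 206874, 218785, 201478 and 233470 in MLPKO mice 1 to 5 and 199607, 198451, 173590, 200256 and 191533 in MLPKO-cRADKO mice 1 to 5. Its ranges did not overlap, but they were separated only by the gap from 200256 to 201478, and the log2 difference was −0.14 (SE 0.07). Myl2 per 100 Myl3 counts was 94.9 ± 2.63 in MLPKO and 87 ± 8.52 in MLPKO-cRADKO (SD, n = 5 each), with mouse 3 at 74.5.

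Mybpc3 (chr2:90948489-90966861, plus strand), which encodes cardiac myosin-binding protein C on the thick filament, had 242090, 234460, 226513, 200892 and 304000 in MLPKO mice 1 to 5. In MLPKO-cRADKO mice 1 to 5 it had 204617, 222404, 173949, 205414 and 197113. The genotypes overlapped, and the log2 difference of −0.27 (SE 0.11) was close to that of Myh6. Per 100 Myh6 counts, Mybpc3 was 16 ± 1.99 in MLPKO and 16.3 ± 1.09 in MLPKO-cRADKO (SD, n = 5 each), a difference of 0.03 (SE 0.09) in mean log2 ratio.

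The atrial light chains were scarce beside the ventricular chains in every mouse, and they were highest in MLPKO-cRADKO mouse 1. Myl4 (chr11:104440903-104486603, plus strand) had normalized counts of 114.7, 137.5, 96.29, 58.43 and 218.9 in MLPKO mice 1 to 5 and 810.2, 104.4, 111.8, 76.4 and 66.38 in MLPKO-cRADKO mice 1 to 5. Myl7 (chr11:5845449-5848792, minus strand) had 26.76, 77.29, 45.7, 55.12 and 35.56 in MLPKO mice 1 to 5 and 188, 13.5, 24.84, 17.49 and 26.18 in MLPKO-cRADKO mice 1 to 5. Mouse 1 of MLPKO-cRADKO was the highest of the 10 for both genes, and the other 4 lay within or below the MLPKO range. The log2 differences were 0.88 (SE 0.68) for Myl4 and 0.15 (SE 0.68) for Myl7, and they were −0.48 and −1.22 without that mouse. Against the ventricular chains of the same library, that mouse had 4.06 Myl4 counts per 1000 Myl3 counts, where the other 9 had 0.29 to 0.937, and 0.977 Myl7 counts per 1000 Myl2 counts, where the other 9 had 0.0729 to 0.399.

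Atrial markers were read beside this mouse. Of 11 atrial markers 8 were tested and edgeR called 0 (2 at an unadjusted p under 0.05). DESeq2 called 1, where it called 1298 of all 13451 genes tested. The other 3 markers, Sln, Bmp10 and Mybphl, were near 0. Their raw counts were 12, 2 and 8 in MLPKO-cRADKO mouse 1 and at most 6, 4 and 8 in the other 9 mice. As normalized counts they were 14.84, 2.474 and 9.895 in that mouse, the highest of its group. The MLPKO maxima were 3.822, 3.822 and 7.295. The summed atrial level without the stress gene Nppa was 194.9 CPM in MLPKO-cRADKO mouse 1 and 116.4 to 210.5 in the others. The largest terms of that sum were Kcnj5 and Kcnj3, with mean normalized counts of 3257 and 1622 in MLPKO. The sum therefore cannot show a difference in Sln, Bmp10 or Mybphl. The part of atrial tissue in the Myl4 and Myl7 values was not tested. Without mouse 1, the log2 difference of Myh7 was −1.25 and that of Mhrt 1.00.

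Levels can be compared between genes only per length, here as RPKM, reads per kb of exon (the union of all annotated exons) scaled to library size. In MLPKO the order was Myh6 (3659 ± 281), Myl3 (1689 ± 107), Mybpc3 (1404 ± 222), Myl2 (1289 ± 104), Myh7 (97.9 ± 25.4), Myh7b (9.23 ± 1.55), Mhrt (3.34 ± 0.549), Myl4 (0.475 ± 0.227) and Myl7 (0.465 ± 0.189; SD, n = 5 for each). Neighbours whose ranges overlapped were Myl3 and Mybpc3, Mybpc3 and Myl2, and Myl4 and Myl7. In MLPKO-cRADKO the order was the same, with Myh7 at 41.6 ± 6.92 and Mhrt at 6.5 ± 0.84 (SD, n = 5 each), and the ranges of Myl3 and Mybpc3 no longer overlapped. The order depends on the length used. With the longest transcript as length, Myl2 was at 3577 ± 290 and Myl3 at 3207 ± 203 in MLPKO (SD, n = 5 each). On that length Mhrt was at 16.2 ± 2.1 and Myh7b at 9.49 ± 1.02 in MLPKO-cRADKO (SD, n = 5 each), the reverse of their order over the union of exons. In MLPKO they were at 8.35 ± 1.37 and 9.58 ± 1.61 (SD, n = 5 each). The 9 genes took up 5.19% ± 0.26 of all counts in MLPKO and 4.45% ± 0.34 in MLPKO-cRADKO (SD, n = 5 each).

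**Figure D4:**
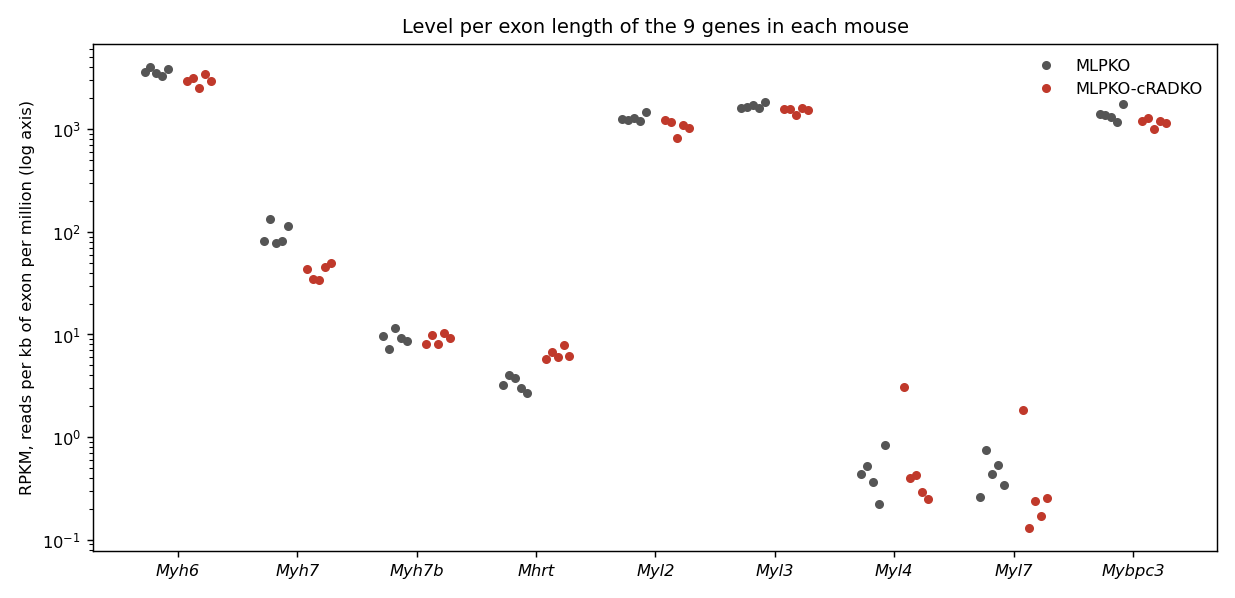
Level of the 9 genes as RPKM (reads per kb of exon, scaled to library size) on a log axis, with 1 point per mouse. Myh6, Myl2, Myl3 and Mybpc3 lie at 825.6 or above in every mouse, Myh7 between 34.03 and 134.4, and Myh7b, Mhrt, Myl4 and Myl7 at 11.44 or below.

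The genes around the myosins on the thick filament were read from a list of 42 other myosin heavy and light chains, their kinases and phosphatases, binding proteins, giant scaffolds, chaperones and ubiquitin ligases. Of these 31 were tested, 2 were lower, 1 was higher and 28 were not called, where 2.74% of all genes tested were called. At an unadjusted p under 0.05 there were 14, without a share of all genes to set beside them. The median log2 difference was −0.19, with 20 genes below 0 and 11 above. Obsl1, a cytoskeletal linker related to obscurin, fell from 7009 ± 652.1 to 5118 ± 417.2 (SD, n = 5 each; log2 difference −0.45, SE 0.08, edgeR adjusted p = 0.0196). Trim54, a ubiquitin ligase of the sarcomere, fell from 7697 ± 237.4 to 6462 ± 409.8 (SD, n = 5 each; −0.25, SE 0.06, edgeR adjusted p = 0.0389). Ppp1r12c, a regulatory subunit of myosin phosphatase, rose from 2229 ± 83.24 to 2602 ± 121.4 (SD, n = 5 each; 0.22, SE 0.05, edgeR adjusted p = 0.0461). None of these 3 overlapped between the genotypes. Without 1 mouse the call of Obsl1 was lost when MLPKO mouse 5 (edgeR adjusted p = 0.0535) or MLPKO-cRADKO mouse 5 (0.062) was left out. Trim54 kept its call in 2 of 10 such fits (without MLPKO mouse 2 or 4), and Ppp1r12c in 1 of 10 (without MLPKO-cRADKO mouse 1).

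Among the rest of that list, chosen after their values had been seen, the M-band genes Myom2 (−1.09, SE 0.27, edgeR adjusted p = 0.0557) and Myom3 (−3.61, SE 0.91, 0.057) and the giant spring Ttn (−0.31, SE 0.11, 0.139) had negative differences that edgeR did not call. Myom3 was very uneven in MLPKO, at 810.3 to 16765 normalized counts, with an SD of 6842 above its mean of 4562. It overlapped with MLPKO-cRADKO, at 173.9 to 1055. DESeq2 called Myom2 (adjusted p = 0.00696) and Myom3 (0.00315) and not Ttn (0.0595). It called 12 genes of the list, and 1298 of all 13451 genes tested. The counts of the whole list added up to 18521 to 22721 CPM in MLPKO and 13277 to 18409 in MLPKO-cRADKO. The adult fast skeletal heavy chain Myh4 and the light chain Myl10 were at 0 in every mouse, and Myh1 and the embryonic Myh3 were at 3 counts or fewer. The perinatal heavy chain Myh8, which failed the count filter, had 3.264 to 15.72 normalized counts in MLPKO and was at 0 in all 5 MLPKO-cRADKO mice, where each library allows up to 3 counts.

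Known regulators of the switch between Myh6 and Myh7 formed the other list, with 42 names from the TEAD and thyroid hormone receptor families, cardiac transcription factors, chromatin regulators, deiodinases and the 3 miRNA genes. Of the 38 tested, 0 were called by edgeR, where 2.74% of all genes tested were called. At an unadjusted p under 0.05 there were 11, without a share of all genes to set beside them. DESeq2 called 8 of them, where it called 1298 of all 13451 genes tested. The median log2 difference of the 38 was 0.05. Tead1, which binds M-CAT elements, had 14023 ± 1788 and 11171 ± 838.6 normalized counts (SD, n = 5 each; −0.33, SE 0.09, edgeR adjusted p = 0.0709, DESeq2 adjusted p = 0.0133). Gata4, a cardiac zinc finger factor, had 7450 ± 1056 and 5751 ± 383.5 (SD, n = 5 each), and its ranges of 6280 to 8795 and 5288 to 6198 did not overlap, but edgeR did not call it (−0.37, SE 0.09, adjusted p = 0.0556). DESeq2 called it (adjusted p = 0.00588), as did edgeR without MLPKO mouse 3 (adjusted p = 0.0408) or MLPKO mouse 4 (0.0458). Of the thyroid hormone receptors, Thra had a log2 difference of 0.10 (SE 0.07, edgeR adjusted p = 0.396) and Thrb of 0.00 (SE 0.17, 0.993). The deiodinase gene Dio1 was at 0 in every mouse.

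**Figure D5:**
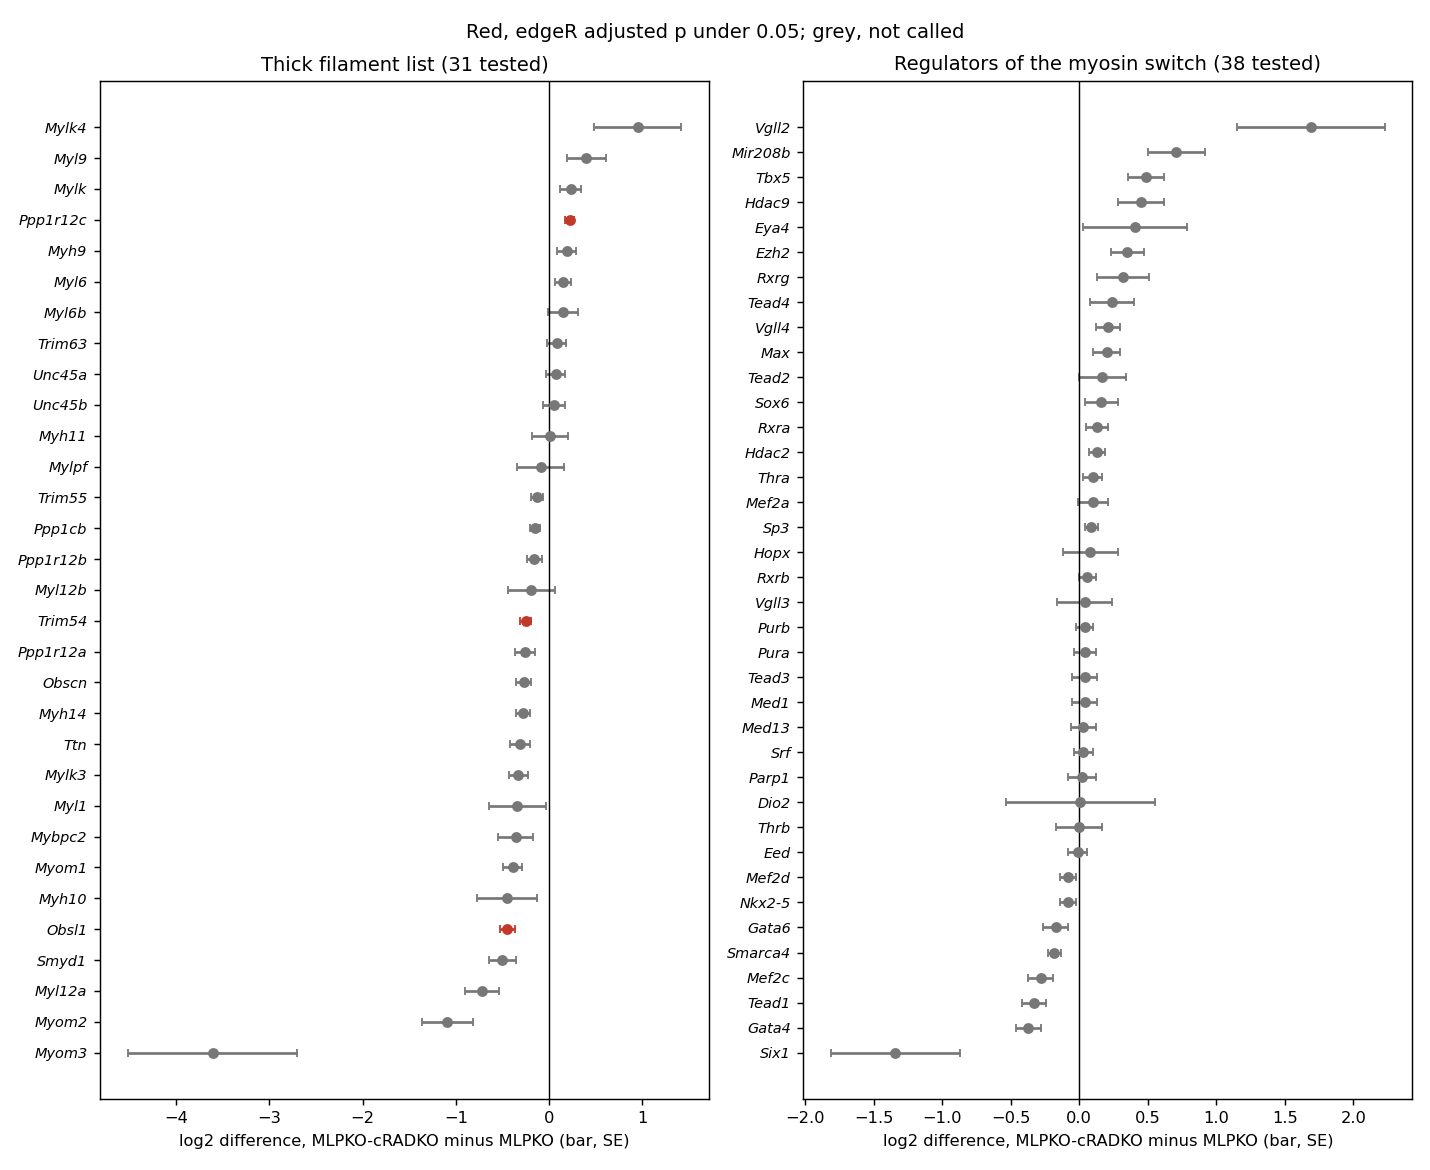
Log2 differences (MLPKO-cRADKO minus MLPKO) of the genes tested in the thick filament list (left, 31 genes) and among the regulators of the switch (right, 38 genes), with the SE of the edgeR fit as a bar. Red points (Obsl1, Trim54 and Ppp1r12c) have an edgeR adjusted p under 0.05, and all of the regulators are grey.

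Markers of the cells in the tissue were read beside the myosin genes. Of 10 ventricular cardiomyocyte markers edgeR called 1, Tnnt2 (−0.57, SE 0.09, edgeR adjusted p = 0.0184), and DESeq2 called 2. The summed level of the 10 was 37714 to 47165 CPM in MLPKO and 35740 to 42366 in MLPKO-cRADKO. Of 4 smooth muscle markers tested edgeR called 1, Acta2 (1.24, SE 0.29, adjusted p = 0.0461), whose groups overlapped at 1256 to 3487 and 3316 to 9400 normalized counts. DESeq2 also called Acta2 (adjusted p = 0.00669), and limma-voom called 0 of the 4. The other 3 were not called, with differences of 0.01 for Myh11, 0.48 for Lmod1 and −2.17 for Cnn1. Cnn1 was uneven in MLPKO, at 181.6 to 2249 normalized counts (mean 664.1 ± 889, SD), and overlapped with MLPKO-cRADKO at 86.01 to 240. Among the fast skeletal muscle markers, Myh4 was at 0 in every mouse, and Myh1 and Tnnc2 were at 3 counts or fewer. None of the 7 fast skeletal muscle, 5 fibroblast, 5 endothelial and 5 macrophage markers tested was called by edgeR. At an unadjusted p under 0.05 these numbers were 0, 0, 5 and 5, and DESeq2 called 0, 0, 2 and 2. Of all 13451 genes tested, DESeq2 called 1298. The endothelial sum was 640.6 to 717.3 CPM in MLPKO and 744.9 to 862.4 in MLPKO-cRADKO, without overlap. The macrophage sum was 85.37 to 122.8 and 107 to 182.1. Their part in the differences of the myosin genes was not tested.

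Among the genes whose log2 CPM was most like that of Myh7 over the 10 mice were Tmem167b (Pearson's r 0.983), Mmp24os1 (0.979), Dsp (0.975) and Cast (0.971). Within the genotypes their r was 0.841 to 0.909, against 0.630 for Myh6. For Mhrt they were Spice1 (0.959), Sh3tc1 (0.957), Slc39a3 (0.941), Isyna1 (0.938) and Mfsd14b (0.937), with 0.546 to 0.743 within the genotypes, where Mir208b had 0.758. The points share the genotype difference and the depth of each library, and these values describe likeness only.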

How the data were processed

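The authors extracted RNA from the apical part of the ventricles (RIN above 9), enriched polyadenylated RNA, and used STAR (GRCm39) and featureCounts to obtain the deposited raw counts per gene. The strand setting, the treatment of reads shared by several genes and tool versions are not given in the sources used here. Of 60676 genes in the table, 3491 were blank in every mouse and were left out, and GENCODE M39 named 56629 of the remaining 57185. As in the study's methods, a gene needed over 10 counts in 6 or more of the 10 mice and no Gm or Rik in its name (13451 genes). Tests were those of edgeR 4.0.16 (quasi-likelihood, R 4.3.3, TMM, Benjamini-Hochberg over all genes tested), checked on simulated data. DESeq2 1.42.0 and limma-voom (limma 3.58.1) were alternatives, together with RLE and upper quartile factors, no count filter, Gm and Rik genes kept, the mouse number as a block, and leaving out each mouse. Ratios used raw counts with 0.5 added to both genes for the log2 ratio, with 10 added as an alternative. Log2 CPM used a prior count of 2.

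The 9 genes and both lists were chosen with earlier results of these data known. Named from the lists were the genes called and Gata4, Thra, Thrb and Tead1, from the marker lists those at 3 counts or fewer, and for Myh7 and Mhrt the 5 genes most like them, of which 1 is not reported here. Other names were chosen after their values had been seen, including called markers. Library totals were 33457406 to 49965101, and the floor of 3 counts per library covers counting error only. The p-values set the genotype difference against the spread between these mice. The labels give no litter or batch, and one that went with genotype could not be told apart from it. Mice of the same number are different animals, and their deviations correlated at −0.042 to 0.152, so the number was not used as a pair. Sequences came from RefSeq tables (GRCm38.p6) and were placed by exact match on GRCm39. Coordinates are GRCm39 and start from 1.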

Additional observations from a re-analysis of the deposited data

Results flagged for a closer look

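In each group of 5 mice the highest and the lowest value were compared with the nearest of the others (Dixon's ratio above 0.710), in 54 groups, and 6 values stood apart, where chance flags about 5% of groups. In MLPKO-cRADKO mouse 1, Myl4 was at 810.2 normalized counts and Myl7 at 188, with the next highest of its group at 111.8 and 26.18, and the ratios of Myl4 to Myl3 (4.06 per 1000) and of Myl7 to Myl2 (0.977 per 1000) stood apart with them. These 4 values come from 1 library. In MLPKO-cRADKO mouse 4, Mir208b was at 478.7, with the next at 282.6. In MLPKO mouse 1, Ppp1r12c was at 2375, with the next at 2222, a gap in the direction of the other genotype.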

How the results depend on the processing

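The log2 differences of Myh7 and Mhrt, which chose the genes and are no test, ranged from −1.30 to −1.09 and from 0.89 to 1.04 with 1 mouse left out, and the 3 ratios of Myh7, Mhrt and Myh6 moved by less than 1 SD in each of their 13 alternatives (Myh7 to Myh6 from −1.0 to −0.83 with 1 mouse left out). The differences of Myl4 and Myl7 rested on MLPKO-cRADKO mouse 1, with ranges of −0.48 to 1.19 and −1.22 to 0.41 with 1 mouse left out, and they were 0.13 and −0.58 with limma-voom. The number of genes called depended on the test and on single mice: 369 over all genes became 1298 with DESeq2 and 50 (without MLPKO-cRADKO mouse 5) to 826 (without MLPKO mouse 4) with 1 mouse left out. Of the thick filament list, 3 calls became 12 with DESeq2 and 0 to 9 with 1 mouse left out. Of the regulators, 0 became 8 with DESeq2 and 0 to 2 with 1 mouse left out. With the mouse number as a replicate block, 1 regulator was called, Trim54 and Ppp1r12c lost their calls (edgeR adjusted p = 0.0622 and 0.0998), and the difference of Myh7 to Myh6 stayed −0.92. Trim54 also lost its call with no count filter (edgeR adjusted p = 0.0556) and upper quartile factors (0.0572), and Ppp1r12c with Gm and Rik genes kept (0.0504) and no count filter (0.0655). Thrb, at 0.00, changed sign to 0.02 with limma-voom, 0.02 with upper quartile factors and 0.03 with the block, and lay between −0.10 and 0.10 with 1 mouse left out. The cause of these shifts was not tested. At 13.5 to 188 counts, Myl7 is the member most limited by depth.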
